A study of Drosophila melanogaster with 8 samples.

Results

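The euchromatic part of the *Drosophila melanogaster* X chromosome was described by all probes named for chrX whose midpoint lay beyond the first 500 kb and that ended more than 1 Mb before the last chrX probe. These limits gave 80680 of the 84892 chrX probes, out of 475395 genomic probes on both array designs of the series, and 80632 of them had a usable value in all 4 samples. The members ran from position 500153 to near 21050000, a span of 20.55 Mb, with a median of 222 bp between neighbouring starts, and their probes lay on only 1 of the 2 designs. Levels were compared with 88729 probes of chromosome arm 3L chosen with the same limits at both ends on the same arrays, of which 88658 had a value.

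H3K36me3 was measured by chromatin immunoprecipitation and microarray (ChIP-chip) in whole embryos collected 2–4 hr after egg laying, in 2 biological samples of the *dkdm4a* mutant and 2 of the line called wild type (WT). The mutant carries the P-element SUPor-P KG04636 in *Kdm4A* on a y1 w67c23 background. The WT line was recovered from that stock by excision of the P-element, through crosses to a transposase stock and a CyO balancer stock. Each genotype was a single line kept in population cages. Immunoprecipitated DNA (IP, anti-H3K36me3) was labelled with Cy5 and input DNA with Cy3 on every array, so that dye and IP cannot be told apart. The level of a probe is log2(IP/input) minus the median of all genomic probes of its array, and a change is *dkdm4a* mutant minus WT. Centring removes a shift common to all probes of an array, so a genome-wide rise in the mutant cannot be read from these levels. The paper reports more bulk H3K36me3 in mutant embryos by western blot.

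H3K36me3 is laid down by the methyltransferase Set2 as it travels with elongating RNA polymerase II, and it therefore marks the bodies of transcribed genes. dKDM4A removes this mark. On the X the mark has a further reader in flies, since the dosage compensation complex of males binds H3K36me3 through its MSL3 subunit when it spreads over active X-linked genes. The labels name no sex for the embryos, and males carry fewer copies of the X than females, so that the amount of X DNA, the fraction of males and the yield of IP cannot be told apart in the arrays.

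On the design with the X probes, the median IP brightness above local background was 119 and 88.5 units in mutant replicates 1 and 2, and 127 and 87.1 units in WT replicates 1 and 2. The number of arrays limits the precision. Of the X members, 13.0% and 16.4% were not well above background in the IP channel of mutant replicates 1 and 2, against 10.9% and 16.5% in WT. In the input channel these shares were 1.45% and 3.50% in the mutant and 1.34% and 3.75% in WT. Replicate 2 of both genotypes was thus dimmer than replicate 1, and the 2 genotypes of a replicate number were scanned on the same day.

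Mean H3K36me3 over the X was close to that over 3L in both genotypes, and slightly above it. The mean level of the X was 0.74 and 0.92 in mutant replicates 1 and 2, and 0.72 and 0.91 in WT replicates 1 and 2. The corresponding 3L means were 0.64 and 0.81 in the mutant and 0.63 and 0.81 in WT. The X thus exceeded 3L by 0.10 and 0.11 in the mutant and by 0.087 and 0.10 in WT, on average by 0.10 ± 0.010 on the log2 scale (SD, n = 4). The difference was positive in 4 of 4 samples. An exact permutation test of its sign, two-sided, gave p = 0.13, which is the smallest p that 4 samples allow. The medians ordered the arms in the same way, with 0.022 and 0.024 for the X in the mutant and 0.015 and 0.019 in WT, against values between -0.076 and -0.053 for 3L.

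**Figure D1:**
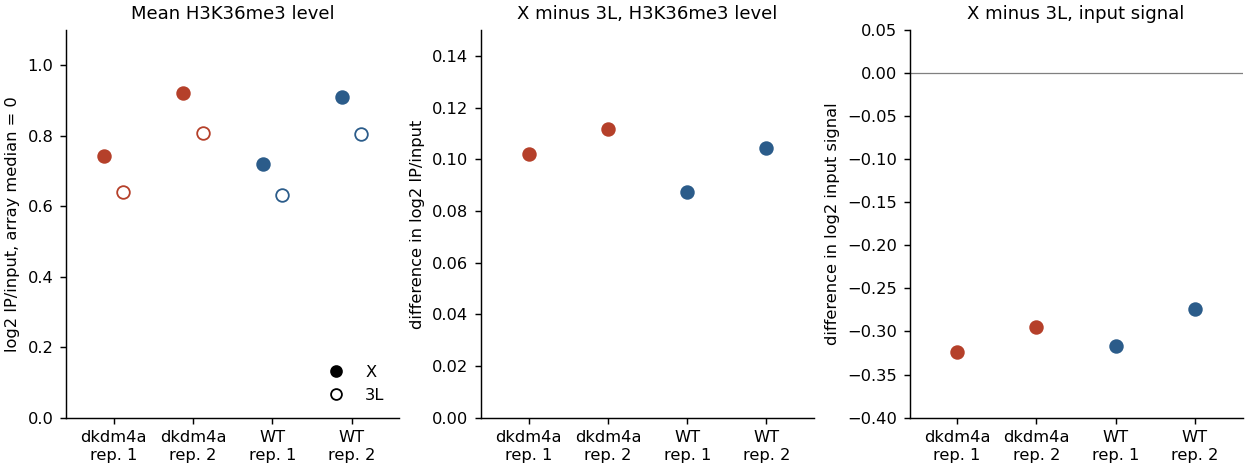
Mean log2 IP/input of X members (filled) and 3L members (open) in each of the 4 samples (left), the X minus 3L difference of that level (middle) and the X minus 3L difference in mean log2 input signal (right). Each point is 1 sample; the level differences lie between 0.087 and 0.11 and the input differences between -0.32 and -0.27, with no separation of the *dkdm4a* mutant and WT.

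The mean excess of the X over 3L did not separate the genotypes. It averaged 0.11 ± 0.0070 in the *dkdm4a* mutant and 0.096 ± 0.012 in WT (SD, n = 2 each), a difference of 0.011 with overlapping samples. An exact two-sided permutation test of genotype gave p = 0.67, where 0.33 is the smallest p possible, and exchange within replicates gave 0.5, also its smallest. By medians the excess did not overlap between genotypes, at 0.087 and 0.10 in the mutant and 0.068 and 0.084 in WT, a difference of 0.018 (exact permutation test, p = 0.33). With arrays scaled to equal spread the mean difference was 0.013 (exact permutation test, p = 0.33), and with the normexp background correction, which removes background by a fitted model of each channel, it was -0.027. The share of X probes with a level above 1 was 27.7% and 30.8% in the mutant and 28.2% and 30.8% in WT, which is 2.65 to 2.98 percentage points above 3L in each sample.

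Both channels of the X were dimmer than those of 3L, and the input more so. Mean log2 input signal was lower on the X than on 3L by 0.32 and 0.30 in the mutant and by 0.32 and 0.27 in WT. These differences correspond to 0.799 and 0.815 of the 3L input signal in the mutant and 0.803 and 0.827 in WT. For the IP channel the X minus 3L difference was -0.22 and -0.18 in the mutant and -0.23 and -0.17 in WT. The ratio of IP to input was therefore higher on the X although less IP signal was measured there. All 4 samples showed the same direction in both channels (exact sign permutation test, two-sided, p = 0.13). Part of the input difference lay in a single stretch that is described next, without which it averaged -0.27 and the excess in level 0.090. Over 21 intervals of 1 Mb with that stretch left out, input was below the 3L mean in all 4 samples in 16, and the interval means ranged from -0.63 to 0.56. The probes of both arms differ in sequence, and the part of probe sequence in these differences was not tested.

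A stretch of 124447 bp, chrX:2652915-2777361, gave almost no input signal in either line. Coordinates are those of the probe names, and their genome build is not given in the sources used here, where Release 5 is named only for the study's definition of heterochromatin. It holds 457 usable probes, of which 335 (73.3%) failed to rise well above background in the input of any sample and 367 failed to do so in the IP. Log2 input is given here and below minus the median of the genomic probes of its array. Mean log2 input in the stretch was -6.52 and -6.83 in mutant replicates 1 and 2, and -6.74 and -6.75 in WT. In the 20 kb on its telomere side it was -0.26 and -0.37 in the mutant and -0.76 and -0.83 in WT, and in the 20 kb on its centromere side -1.22 and -1.39 in the mutant and -1.23 and -1.32 in WT. Only 1 run of 3 or more neighbouring probes within the stretch was well above background in the input of all 4 samples, a 467 bp run at chrX:2731832-2732298 that was still at -2.50 and -3.79 in the mutant and -2.92 and -3.93 in WT. The log2 IP/input of the stretch was 2.71 and 2.91 in the mutant and 2.65 and 2.81 in WT. Because both channels were at background, that ratio is one of 2 dim signals and no H3K36me3 level was read from it. Whether the DNA of this stretch was present in the y1 w67c23 mutant stock or in the WT line recovered from it was not tested. The X minus 3L values above include the stretch unless stated. Of the 49 runs of at least 3 neighbouring X probes that were dim in the input of every sample, 48 lay in this stretch.

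The X held both enriched and unenriched sequence. Enriched domains, defined as runs of at least 3 probes whose 5-probe moving average reached 1 in both replicates, held 25.6% of X probes in the *dkdm4a* mutant and 25.6% in WT. On 3L the same definition covered 23.2% in the mutant and 23.2% in WT. The mutant had 709 X domains and WT 705, with median widths of 4988 bp in the mutant and 4865 bp in WT. Of the mutant domains, 671 (94.6%) touched a WT domain, and 670 (95.0%) of the WT domains touched a mutant domain. Inside the 690 domains shared by all 4 samples the mean level was 3.70 and 4.19 in mutant replicates 1 and 2, and 3.72 and 4.22 in WT. Outside them it was -0.23 and -0.16 in the mutant and -0.27 and -0.18 in WT. Replicates thus differed more inside domains than genotypes did. The domains were defined by these same levels, so the contrast between inside and outside is built in. Without the stretch of dim input, 25.2% of X probes lay in domains in the mutant and 25.2% in WT.

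**Figure D2:**
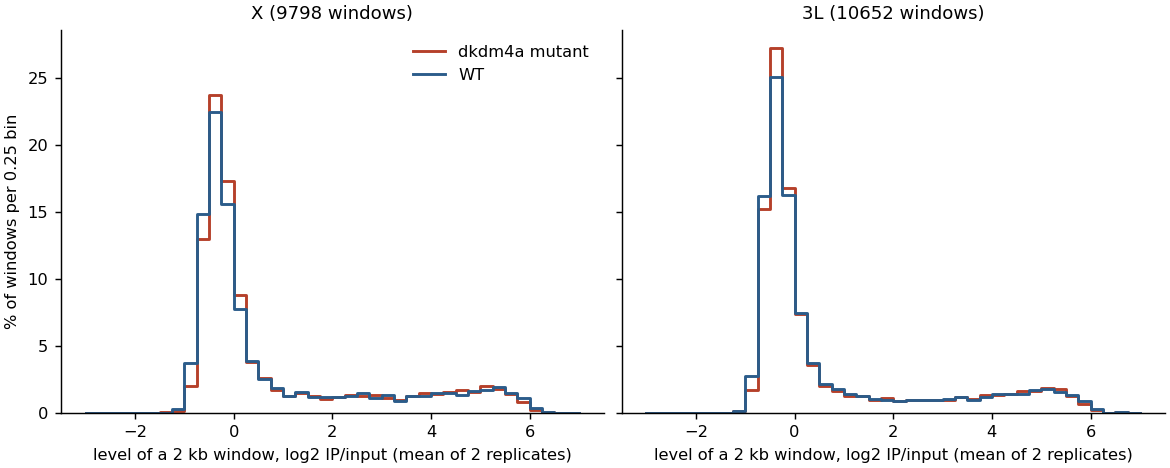
Share of 2 kb windows in bins of 0.25 of log2 IP/input, mean of 2 replicates, for the *dkdm4a* mutant and WT, on the X (9798 windows) and 3L (10652 windows). Most windows of both arms lie below 0, with a long flat tail to about 6, and the curves of the 2 genotypes nearly coincide. The X windows of the stretch of dim input are included.

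Windows of 2 kb with at least 3 probes were grouped by their mean level. Of 9798 X windows, 57.2% averaged below 0 over the 4 samples, 15.6% lay from 0 to 1, 10.2% from 1 to 3 and 17.0% at 3 or above. On 3L these shares were 61.0%, 14.6%, 8.27% and 16.2%. The X shares include the windows of the stretch of dim input, whose mean log2 IP/input lay between 2.65 and 2.91 in the 4 samples. Shares without those windows were not computed. The 5 highest X windows with at least 5 probes were chrX:10314001-10316000, chrX:9524001-9526000, chrX:4526001-4528000, chrX:19510001-19512000 and chrX:1876001-1878000. The first of them was at 6.06 and 6.56 in mutant replicates 1 and 2, and at 6.07 and 6.70 in WT. The fifth was at 5.96 and 6.54 in the mutant and at 5.92 and 6.58 in WT. In these 5 windows replicate 2 exceeded replicate 1 in both genotypes, and every probe was well above background in both channels of all samples.

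The domains of the X were mostly short. Among the 690 shared domains, 121 were at most 2 kb wide with a median level of 1.97, and 228 were wider than 2 kb and up to 5 kb with a median level of 3.12. A further 195 were up to 10 kb wide (median level 4.10), 124 up to 20 kb (4.32), and 22 were longer (4.37). Wider domains thus had higher levels up to 10 kb and little more beyond it. Domains are runs of the smoothed levels themselves, so width and level are not independent. The longest class includes the run of dim input described next. The longest run called, chrX:2708450-2780448 (71999 bp), lay largely in the stretch of dim input, with 214 of 306 probes dim in the input of every sample. The longest domain with input present was chrX:15547473-15593073, 45601 bp and 193 probes, at 4.34 and 4.89 in the mutant and 4.41 and 4.97 in WT. The next were chrX:1713325-1755266 (41942 bp) and chrX:6650374-6688459 (38086 bp). The median gap between neighbouring domains was 5968 bp, whereas the longest intervals without any domain were chrX:7189086-7516718 (327633 bp), chrX:20508711-20833750 (325040 bp) and chrX:14111262-14414543 (303282 bp).

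Along the X the mean level of 1 Mb intervals ranged from 0.30 to 1.46 over the 4 samples, and all samples followed the same course. These means include the stretch of dim input. It lies in chrX:2000001-3000000, which averaged 1.21 with 40.4% of its windows above 1. The highest interval was chrX:16000001-17000000, at 1.31 and 1.59 in the mutant and 1.33 and 1.61 in WT, with 40.5% of its windows above 1. The lowest was chrX:4000001-5000000, at 0.27 and 0.37 in the mutant and 0.23 and 0.34 in WT, with 16.1% of windows above 1. With the stretch left out, between 13.8% and 37.1% of the probes of an interval lay in shared domains. The last interval, from 21000001, held only 25 windows and was left out of this ranking.

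**Figure D3:**
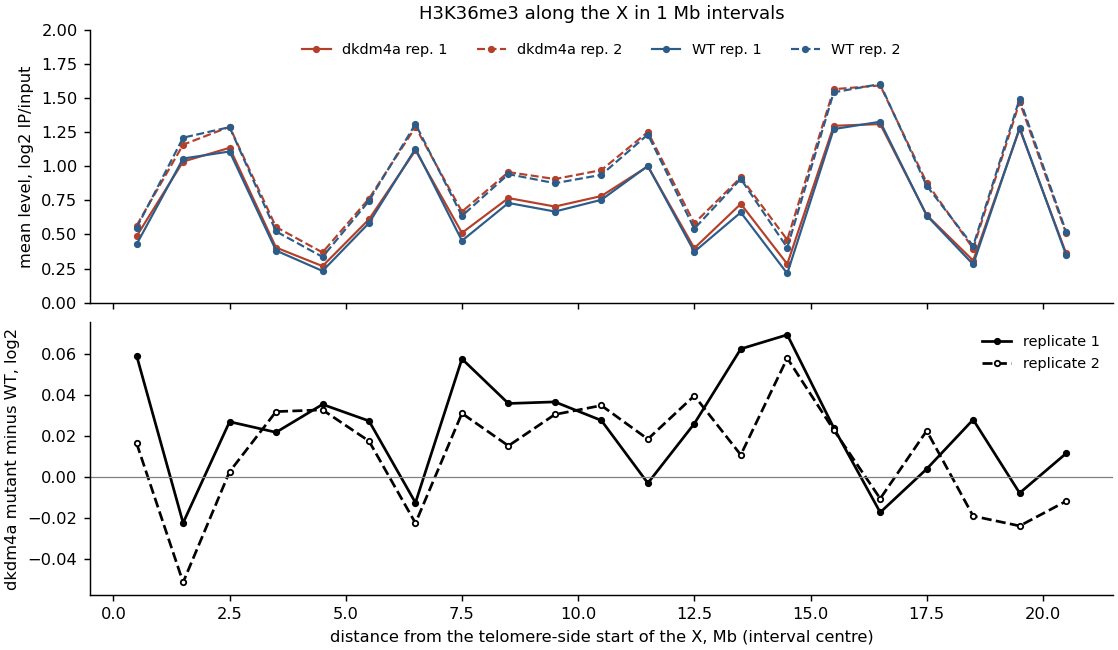
Mean level of 2 kb windows in 1 Mb intervals along the X in each sample (top, log2 IP/input) and the change, *dkdm4a* mutant minus WT, in each replicate (bottom, log2), against the distance from the telomere-side start. All 4 samples follow the same course, with a highest interval mean of 1.46, and changes stay between -0.051 and 0.069. The stretch of dim input is included, in chrX:2000001-3000000.

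At this scale the genotypes differed little in centred levels. The change of an interval, averaged over the replicates, ranged from -0.037 at chrX:1000001-2000000 to 0.064 at chrX:14000001-15000000. At chrX:14000001-15000000 the level was 0.28 and 0.46 in the mutant and 0.21 and 0.40 in WT, higher in the mutant in both replicates. Of 21 intervals, 14 were higher in the mutant in both replicates and 4 were lower in both, against 13 and 6 of 23 on 3L. These counts depended on scaling, with 1 interval higher in both and 15 lower in both without centring, 15 and 0 with arrays scaled to equal spread, and 0 and 2 with normexp, so that no direction was read from them.

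At the limits of the region levels differed more with position than with genotype. The 413 probes of the first 100 kb inside the telomere-side limit averaged 0.46 and 0.60 in the mutant and 0.50 and 0.62 in WT, and the 390 probes of the 100 kb just outside averaged 1.29 and 1.48 in the mutant and 1.40 and 1.53 in WT. At the centromere side the 277 probes just inside averaged -0.35 and -0.26 in the mutant and -0.36 and -0.28 in WT, and the 408 just outside 1.13 and 1.36 in the mutant and 1.17 and 1.38 in WT.

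Few X windows changed in a fit of all 57266 windows of both designs with limma, without a replicate term. Past an adjusted p of 0.05, 1 X window was higher in the *dkdm4a* mutant and 8 were lower, or 0.0102% and 0.0816% of X windows, where 0.353% of all windows were called higher and 0.173% lower. On 3L the counts were 28 and 24 of 10652. At an unadjusted p below 0.05 the X counts were 266 higher and 169 lower, or 2.71% and 1.72%, against 3.74% and 2.08% of all windows. The division into higher and lower calls depended on scaling: 2 and 7 with centring on 3L, 16 and 15 without centring, 14 and 9 with arrays scaled to equal spread, and 13 and 12 with the deposited log2 ratios. These are counts of X windows only, and calls over all windows were not counted under these scalings. With the replicate number as a block, which takes up the shift between replicates, 352 X windows (3.59%) were called higher and 410 (4.18%) lower, against 5.4% and 3.74% of all windows. On 3L the blocked fit called 450 higher and 455 lower.

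**Figure D4:**
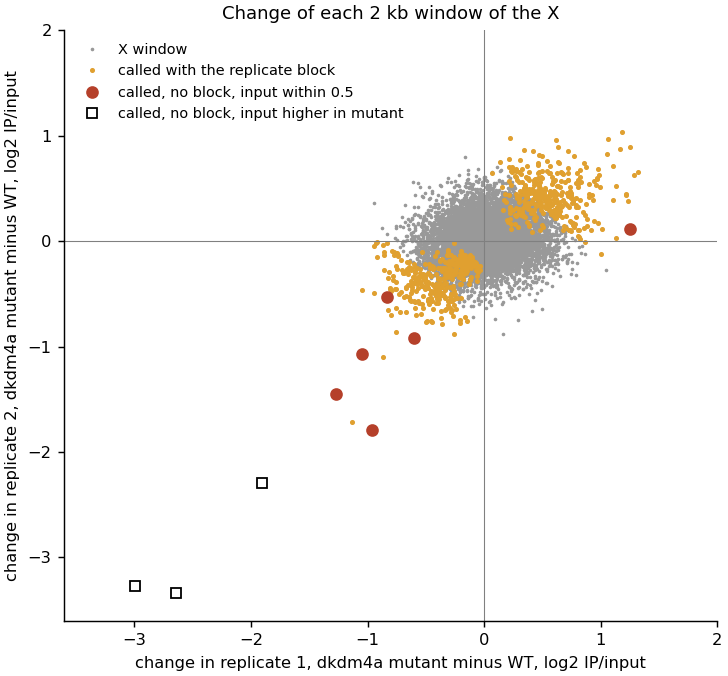
Change of each 2 kb X window, *dkdm4a* mutant minus WT in log2 IP/input, in replicate 1 (horizontal) and replicate 2 (vertical); orange points were called with the replicate block, red circles without it, and open squares mark called windows whose input was over 0.5 higher in the mutant. Of the 9 windows called without the block, 8 lie to the lower left of zero change, 3 of them as open squares.

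Of the 8 lower windows, 5 differed in input between the lines by at most 0.22 in each replicate. The window chrX:20328001-20330000 (9 probes) was at 1.40 and 1.54 in mutant replicates 1 and 2, and at 2.67 and 2.99 in WT. The change was -1.36 ± 0.33 (SE, limma adjusted p = 0.0112). Its input was higher in the mutant by 0.081 and 0.22, which limma called with the block (adjusted p = 0.0265). It lay in the trough between 2 enriched blocks. On its telomere side chrX:20326001-20328000 was at 4.15 and 4.66 in the mutant and 4.59 and 5.31 in WT, and the next window, chrX:20324001-20326000, at 4.72 and 5.32 in the mutant and 4.88 and 5.40 in WT, so that the difference shrank with distance. The adjoining window chrX:20330001-20332000 was at 2.98 and 3.03 in the mutant and 4.11 and 4.75 in WT, a change of -1.42 that limma called with the block but not without it (adjusted p = 0.182). Without the block it was called when arrays were not centred (adjusted p = 0.0013) or were scaled to equal spread (adjusted p = 0.00252). Mean input of the window was lower in the mutant, by 0.55 and 0.39, which limma called with the block (adjusted p = 9.42e-09). Much of this difference lay in 1 of its 8 probes, at which mutant minus WT input was -2.64 and -2.38. Without that probe the input difference was -0.26 and -0.10 and the change in level -1.25 and -1.76.

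A second region of decrease comprised 2 called windows 4 kb apart. At chrX:19930001-19932000 (6 probes) the level was 0.55 and -0.13 in the mutant and 1.51 and 1.67 in WT, a change of -1.38 ± 0.24 (SE, limma adjusted p = 1.64e-05). At chrX:19924001-19926000 (8 probes) it was -0.60 and -0.41 in the mutant and 0.45 and 0.66 in WT, a change of -1.06 ± 0.19 (SE, limma adjusted p = 3.64e-05). Between them, the window chrX:19926001-19928000 was at 0.083 and 0.29 in the mutant and 0.48 and 0.57 in WT without passing the test. The window after it held fewer than 3 usable probes and was not tested.

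The other 2 were small. The level at chrX:2446001-2448000 was 0.067 and -0.16 in the mutant and 0.67 and 0.76 in WT (change -0.76, limma adjusted p = 0.0495). At chrX:17902001-17904000 it was -1.05 and -0.57 in the mutant and -0.22 and -0.047 in WT (change -0.68, limma adjusted p = 0.0234). In both, the next window on the centromere side was also lower in the mutant in both replicates, at -0.18 and 0.071 in the mutant and 0.54 and 0.74 in WT for the first, and at 0.066 and -0.018 in the mutant and 0.89 and 0.63 in WT for the second, and limma called both of these neighbours with the replicate block (adjusted p = 6.87e-05 and 1.9e-05) but not without it (adjusted p = 0.104 and 0.0781). The calls at all 5 windows were lost in the fit without a variance trend, which leaves the changes as they are, and with normexp and loess, which made them smaller. With loess the change was -0.69 at chrX:20328001-20330000, -0.999 at chrX:19930001-19932000, -0.46 at chrX:19924001-19926000, -0.46 at chrX:2446001-2448000 and -0.33 at chrX:17902001-17904000. With normexp it was -1.19, -0.70, -0.59, -0.41 and -0.27 in the same order. With the deposited log2 ratios those at chrX:20328001-20330000, chrX:2446001-2448000 and chrX:17902001-17904000 were lost (adjusted p = 0.304, 0.101 and 0.0526 by limma). The call at chrX:2446001-2448000 was also lost with centring on 3L (adjusted p = 0.0719), those at chrX:2446001-2448000 and chrX:17902001-17904000 with arrays scaled to equal spread (adjusted p = 0.0524 and 0.106), and that at chrX:17902001-17904000 with probes well above background in both channels (adjusted p = 0.0625). With 1 sample left out, those at chrX:20328001-20330000 and chrX:2446001-2448000 were lost whichever sample it was, that at chrX:17902001-17904000 was lost without mutant replicate 1 or either WT replicate, that at chrX:19930001-19932000 without mutant replicate 2 (adjusted p = 0.542) and that at chrX:19924001-19926000 without mutant replicate 1 (adjusted p = 0.0894), while every direction remained.

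The 1 higher window, chrX:5810001-5812000 (9 probes), was at -0.047 and -0.30 in the mutant and -1.29 and -0.42 in WT, a change of 0.68 ± 0.17 (SE, limma adjusted p = 0.0205). It rests on WT replicate 1, since the change was 1.25 in replicate 1 and 0.12 in replicate 2, and it was 0.25 and not called without WT replicate 1. With normexp the change was 0.00018. The call was also lost without either mutant replicate, and it did not hold with loess, without centring (adjusted p = 0.073), with arrays scaled to equal spread (adjusted p = 0.233), with the deposited log2 ratios (change 0.34, adjusted p = 0.904), with probes well above background in both channels (adjusted p = 0.145) or without a variance trend.

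The remaining 3 lower windows were places where the lines differed in input. At chrX:6322001-6324000 (3 probes) log2 input was -0.087 and -0.13 in the mutant, against -6.70 and -7.28 in WT. In WT 1 of the 3 probes was well above background in replicate 1 and none in replicate 2. For the 2 probes that were not well above background on either WT array, input was at least 30.5-fold and 52.3-fold higher in the mutant, with the lowest signal well above background on each array taken as the bound. At chrX:20774001-20776000, 4 probes spanning chrX:20774944-20775866 were at -2.09 and -2.33 in the mutant and -6.22 and -7.02 in WT. The bounds for 3 of those probes were at least 5.01-fold to 34.0-fold. The third, chrX:2652001-2654000, adjoins the stretch of dim input. Its first 4 probes, chrX:2652110-2652777, were at 0.050 and 0.23 in the mutant and at -6.69 and -6.52 in WT. On each WT array 2 of the 4 were still well above background. Dim input thus reached farther toward the telomere in WT than in the mutant. For the 2 of these probes not well above background on either WT array, input was at least 4.63-fold and 110-fold higher in the mutant. The fitted changes in log2 IP/input of the 3 windows were -3.13, -2.99 and -2.10, but their WT levels are ratios of dim signals, and no change in H3K36me3 was read from them.

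**Figure D5:**
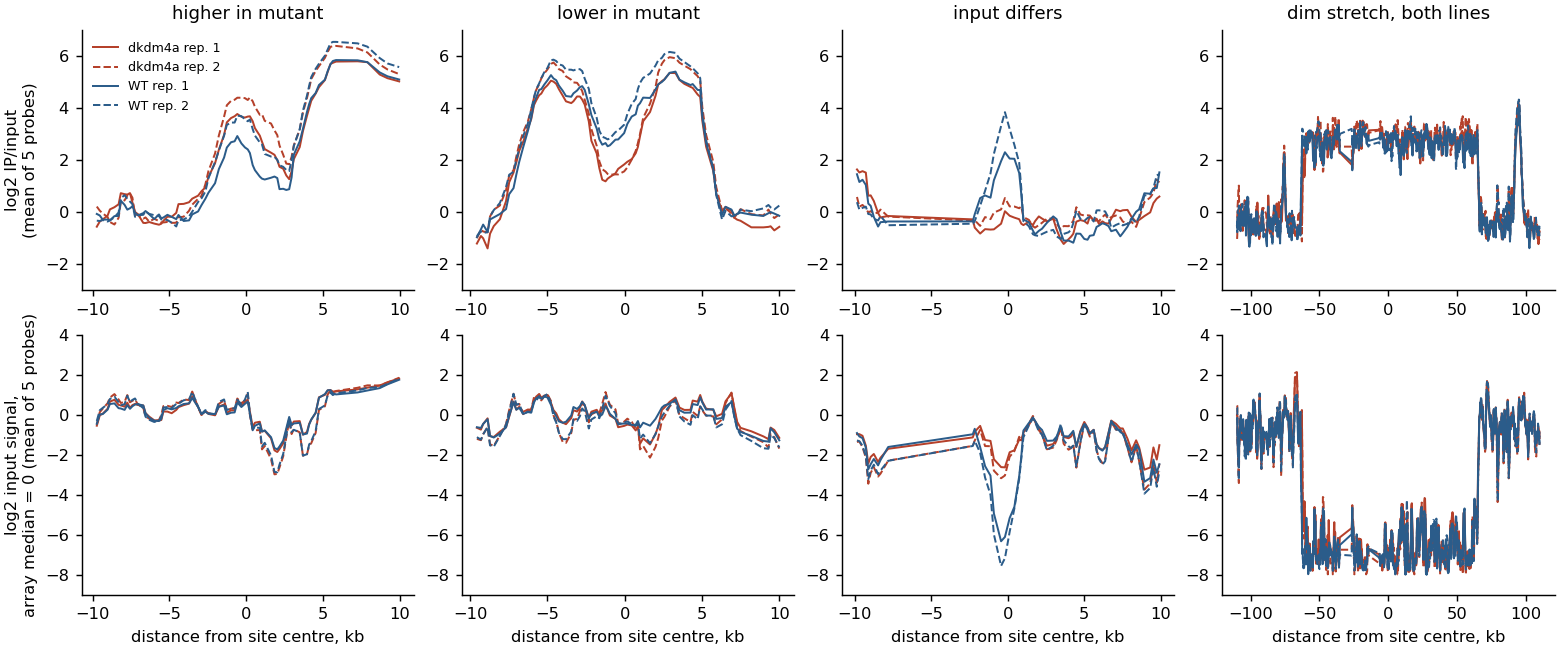
Log2 IP/input (top) and log2 input signal (bottom), each a mean of 5 neighbouring probes, in the 4 samples around the domain with the largest increase (chrX:1965571-1969678), the decrease at chrX:20330001-20332000, the input difference at chrX:20774944-20775866 and the stretch of dim input, against the distance from the site's centre. Input is close in both genotypes at the first site, lower in the mutant within the second, with mutant minus WT differences down to -0.94 and -0.72 in replicates 1 and 2, dim in WT at the third, and dim in all 4 samples over 124447 bp at the fourth.

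Input differences between the lines were counted in the same way. Limma without the block called no window of either design for input. At an unadjusted p below 0.05 there were 19 higher and 9 lower X windows, 0.194% and 0.0919%, against 1.21% and 1.16% of all windows. The 3 windows with dim input in WT were not called either (adjusted p between 0.36 and 0.523), so that the absence of calls does not show that input was the same. With the block, 252 X windows were called higher and 253 lower, 2.57% and 2.58%, against 6.38% and 7.75% of all windows. On 3L 1105 and 1030 were called, 10.4% and 9.67%, so that 3L lay above all windows. At single probes, input differed by 1 or more (log2) in both replicates at 105 X probes that were higher in the mutant and 129 that were lower, 1.30 and 1.60 per 1000 probes, against 10.9 and 8.57 per 1000 on 3L. The share over all probes was not computed. Among these X probes were 5 runs of at least 3 neighbouring probes, and the others lay alone or in pairs. Beside the 3 above, chrX:2646473-2647450 was higher in the mutant, at 1.50 and 1.60 in the mutant and 0.13 and 0.32 in WT. The only run lower in the mutant was chrX:10896936-10897865, at -2.52 and -2.71 in the mutant and -1.05 and -1.27 in WT.

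The windows with the largest changes in the blocked fit, chosen after their values were seen, included increases of about 1 as well as decreases. They were the X windows called with the block that changed by at least 0.8 in both replicates and had input in both lines, 5 of them higher in the mutant and 5 lower. The same count was not made on 3L or over all windows, so no balance of directions was read from it. The adjoining windows chrX:1966001-1968000 and chrX:1968001-1970000 were at 3.68 and 4.39, and at 2.62 and 3.50, in mutant replicates 1 and 2, against 2.63 and 3.57, and 1.44 and 2.47, in WT. The lower mutant and the higher WT sample lay close together in both windows, and without the block limma gave adjusted p = 0.752 and 0.181. The window chrX:642001-644000 was at 3.02 and 3.36 in the mutant and 1.77 and 2.47 in WT (change 1.07). The window chrX:16376001-16378000 was at 2.86 and 3.02 in the mutant and 1.70 and 2.14 in WT (change 1.02), and the 2 windows after it were higher in the mutant in both replicates as well. The window chrX:19002001-19004000 was at 2.23 and 2.12 in the mutant and 1.17 and 1.16 in WT, a change of 1.01 (limma adjusted p = 0.0821 without the block). Calls without the block came with 2 other scalings, no centring for chrX:642001-644000, chrX:1968001-1970000, chrX:16376001-16378000 and chrX:19002001-19004000 (limma adjusted p between 0.000949 and 0.00684), and equal spread for all 5 of the higher windows (adjusted p between 0.00369 and 0.026). With loess the changes were much smaller, 0.28 at chrX:642001-644000, 0.23 at chrX:1966001-1968000, 0.25 at chrX:16376001-16378000 and 0.39 at chrX:19002001-19004000, against 0.87 at chrX:1968001-1970000. With normexp they lay between 0.21 (chrX:1968001-1970000) and 0.85 (chrX:642001-644000). Without WT replicate 1 the change was 0.47 at chrX:1966001-1968000 and 0.59 at chrX:1968001-1970000, and without mutant replicate 2 it was 0.59 and 0.66. The window chrX:19002001-19004000 was also called with probes well above background in both channels (adjusted p = 0.0482). Beside those already described, chrX:18470001-18472000 was lower, at 3.37 and 3.61 in the mutant and 4.23 and 4.72 in WT (change -0.98), and it was called without the block only with arrays scaled to equal spread (adjusted p = 0.039). With loess its change was -0.17, and that of chrX:20330001-20332000 was -0.56.

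Counting by size alone, 59 X windows (0.602%) were higher in the mutant by at least 0.5 in both replicates and 32 (0.327%) were lower, where 1.54% and 0.59% of all windows were. Of these, 58 and 29 had a mean input within 0.5 between the lines. At a change of at least 1 the X had 1 higher window (0.0102%) and 6 lower ones (0.0612%), against 0.143% and 0.0698% of all windows, and 3 of the lower ones had input within 0.5. Over all X windows, 3054 were higher in the mutant in both replicates, 2761 were lower in both and 3980 went opposite ways. The fitted change was above 0 in 52.5% of X windows, against 53.7% of all windows and 50% of 3L windows. The counts by replicate were not made for all windows or under other scalings, so no direction was read from them. The changes of the 2 replicates correlated across X windows with Pearson's r = 0.338 and Spearman's rho = 0.266, and across 3L windows with r = 0.441. Neighbouring windows share fragments and are not independent, so these are descriptions.

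The change also varied with the level of the window, in a way that depended on scaling. Windows were grouped by the mean level of both genotypes in 1 replicate, and the change was read in the other. The replicates share any lasting difference between the lines, so the values are a description. Among X windows below -0.5 in replicate 1 (1783 windows), the change in replicate 2 averaged 0.040, and 58.0% were higher in the mutant. Among those at 5 or above (394 windows) it averaged -0.11, and 7.11% were higher in the mutant. With the replicates exchanged the means were 0.060 and -0.048, with 59.2% and 32.2% higher. On 3L the same grouping gave 0.014 and -0.096 in replicate 2 and 0.036 and -0.023 in replicate 1. For the same high X windows the mean change was 0.031 in replicate 2 and 0.044 in replicate 1 with loess, and -0.081 and 0.26 with arrays scaled to equal spread. For the low ones it was -0.11 in replicate 2 and 0.17 in replicate 1 with normexp. No direction was therefore read from the level classes.

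Of the 690 shared X domains, 193 were higher in the mutant in both replicates and 356 were lower in both, with a median change of -0.051, against 242 and 299 of 667 on 3L with a median of -0.021. This balance also turned with scaling, with 264 X domains higher in both and 87 lower in both (median change 0.074) for arrays scaled to equal spread, 305 and 148 (0.028) with loess, and 13 and 431 (-0.29) with normexp. Larger changes came in both directions, with 13 domains higher by at least 0.5 in both replicates and 4 lower, against 19 and 7 on 3L. With normexp these X counts were 0 and 3, and with loess 0 and 0. The domain chrX:1965571-1969678 had the largest increase, at 3.07 and 3.91 in the mutant and 1.98 and 2.96 in WT. It was followed by chrX:19002721-19004010, at 2.54 and 2.58 in the mutant and 1.60 and 1.70 in WT. The largest decrease was at chrX:5957591-5959350, with 1.49 and 1.82 in the mutant and 2.27 and 2.59 in WT. These domains had mean levels between 1.81 and 3.73 over the 4 samples.

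The peak procedure of the study's methods was also run on the change itself. It takes a 5-probe moving average of the mutant over WT track of each replicate, calls peaks with thresholds of 1 and 2 SD above the mean of positive probes, and keeps peaks that overlap between replicates. It has no test. On the X it gave 85 increased regions, 72 after the requirement of more positive than negative probes in the mutant, and 93 decreased regions by the same steps on the reversed track. The 85 and 93 are 1.05 and 1.15 per 1000 probes, against 1.83 and 1.54 per 1000 probes of both designs and 1.62 and 1.71 on 3L. Most peaks of a single replicate did not recur, since replicate 1 alone had 570 increased and 614 decreased X peaks and replicate 2 alone 366 and 366, all before that requirement. The shared regions included an increase at chrX:1965134-1970265 (change 0.94) and a decrease at chrX:20326511-20332191 (change -1.09). No filter on input was applied. The decreased regions with the largest changes, chrX:6322411-6322863 (-3.13), chrX:20773222-20776323 (-1.71) and chrX:2651497-2654762 (-1.52), cover the sites described above where input was dim in WT.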

How the data were processed

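Per the labels, IP (Cy5) and input (Cy3) DNA of 2 *dkdm4a* mutant and 2 WT embryo samples was hybridized to 2 Agilent designs each, 8 arrays in all, of which the 4 of design 817 hold the X. The authors deposited Feature Extraction 10.5.1.1 scanner files with processed intensities of both channels, background-subtracted and dye-normalized with a linear factor, with very low intensities replaced by small positive values. The authors also deposited other flags (outlier, well above background) and log2 ratios, which equal the background-subtracted ratio plus a constant per array, with medians between -0.021 and -0.016. The submitters' processing notes name limma.

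Probes flagged as outliers on any array were left out. Log2 ratios of processed intensities were centred on the array median and averaged over 2 kb windows with at least 3 probes. Windows of both designs were tested with limma 3.58.1 (lmFit, eBayes with trend, R 4.3.3) and adjusted by Benjamini-Hochberg, and single values by exact permutation over samples. The fit and the peak steps were checked on simulated data. Alternatives were normexp, loess, other centring and scaling, deposited ratios, filters on dim probes, other window sizes, leaving out samples, and a replicate block. Replicate numbers pair the samples by scan day, as the file headers show. Differences of replicate 2 minus 1 correlated between genotypes over X windows with r = 0.612 and over 3L windows with 0.65.

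Windows were named by rule: up to 10 called increases and 10 called decreases with at least 5 probes and the same direction in both replicates, the 5 highest levels, and 1 Mb intervals at the extremes. The 3-probe window at 6322001, the stretch of dim input, the domains and the windows of the blocked fit were chosen after their values were seen. The members and lists were chosen with earlier results of these data known. Probes are named only by coordinates, no genome of their build was used here and genes were not placed, so a planned list of X-linked genes was not used and no sequences are shown.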

Additional observations from a re-analysis of the deposited data

How the results depend on the processing

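The X minus 3L level stayed positive under every alternative computed, from 0.084 with the 3L ends included to 0.18 with normexp, and between 0.098 and 0.11 with 1 sample left out. Its mutant minus WT difference reversed to -0.027 with normexp and was 0.0027 to 0.020 with 1 sample left out. The input difference stayed between -0.36 and -0.23. Enriched coverage moved together in mutant and WT: 17.4% and 17.8% with normexp, 12.5% and 12.1% with loess, 22.9% and 23.0% without centring, 30.3% and 30.4% with probes well above background in both channels, and 29.0% and 29.1% or 21.0% and 20.9% with 0.5 or 2 as the enriched level. With 1 replicate left out it was 25.8% to 27.4% in the mutant and 25.9% to 27.6% in WT.

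Called X windows, higher and lower, were 0 and 2 with normexp, 0 and 0 with loess, 16 and 15 without centring, 0 and 1 without the variance trend, and 352 and 410 with the replicate block. Except with the block, calls over all windows were not counted under the alternatives. Higher calls were 2 with centring on 3L, 14 with scaling by spread, 13 with deposited ratios, 5 and 8 with the filters on dim probes in the input and in both channels, and 5 with 1 kb windows, and lower calls were 4 without windows whose input differed. With 1 sample left out, higher calls numbered 0 (without WT replicate 1), 2, 2 and 18 (without WT replicate 2), and lower calls between 4 and 7. In the input, 2 X windows were called with normexp, 505 with the block, and 2 to 4 with 1 sample left out. A group left with 1 sample was assumed to vary like the other.

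Peaks, increased after the requirement of more positive than negative probes and decreased without it, were 72 and 93 as reported, 0 and 257 with normexp, 3 and 8 with thresholds taken before smoothing, 218 and 366 from replicate 2 alone and 314 and 614 from replicate 1 alone. Increased peaks numbered 46 without centring, and decreased ones 59 with scaling by spread. The cause of these shifts was not tested. No change of a named window reversed. The 3 windows with dim input in WT had no value under the filters on dim probes. All 9 X windows called without the replicate block were called with it too, and it also called the named windows that were chosen from the blocked fit and not called without it, and the input windows counted above. The changes of the same intervals, domains and level classes under other scalings were computed after seeing the data. The 2 samples per genotype and the dim IP channel limit what smaller changes can be read. The alternative without the stretch of dim input was chosen after seeing the data.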
